A study of Mus musculus with 12 samples.

Results

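The genes described here are 35 that encode lysosomal hydrolases other than cathepsins, or helpers of those enzymes, in alveolar macrophages of mice given bleomycin. The exception is Ctsa, also known as cathepsin A, which is 1 of the 35. They were chosen by symbol from a fixed list of names, and each matched 1 row of the 26855 genes in the count table. All 35 passed the low-count filter, as did 12625 genes in all. Bleomycin, a drug that damages lung tissue, is a common way to produce fibrosis in mice, and bronchoalveolar lavage was taken on day 14. Lavage cells were parted by a size filter into a fraction rich and a fraction poor in border-associated alveolar macrophages, then sorted by side scatter and by BODIPY, which stains neutral lipid. The 12 libraries form 3 groups of 4, titled UPBIG, UPSMALL and DOWN. All 3 groups come from bleomycin-treated mice, and no untreated group enters the comparisons. The sources used here give no strain, sex or age and do not link a title to a fraction or gate. Whether each replicate is a different mouse is not said either, so the p-values rest on the spread of these libraries alone, and that spread may be technical.

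Lysosomal hydrolases cut macromolecules at acid pH. Alveolar macrophages take up surfactant lipid, dead cells and matrix fragments and rely on these enzymes to clear them. Most are made in the endoplasmic reticulum, tagged with mannose 6-phosphate in the Golgi and carried to the lysosome by receptors. Glycolipids are taken down sugar by sugar with the help of small activator proteins, and glycosaminoglycans are taken down by alternating sulfatases and glycosidases, so a missing enzyme leaves its own substrate behind. The genes were sorted by main substrate into glycolipid (9 genes), glycosaminoglycan (8), glycoprotein (6), lipid (5) and peptide (3), with 4 left over. Those 4 concern glycogen (Gaa), phosphate esters (Acp2), DNA (Dnase2a) and the activation of sulfatases (Sumf1). An exception to the sorting is Ctsa, a carboxypeptidase gene that was counted with the glycoprotein genes.

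Many lysosomal genes carry a promoter element built around CACGTG, to which TFEB and its relatives can bind. RefSeq promoters of build GRCm38.p6, from 250 bases before to 50 bases after a start, were matched for 30 of the 35 genes. CACGTG, which reads the same on both strands, was found in 10 of these 30 genes (33.3%), against 12.1% of the 9350 tested genes with a promoter and 7.15% of all 32851 promoters. The longer GTCACGTG, searched on both strands and containing the shorter motif, was found in 8 of the 30 (26.7%), against 4.92% of the tested genes and 2.25% of all promoters. A match describes the letters and not a bound site. The stretches around the motif, with 20 bases on each side where 1 site is shown, are printed here because they let genes that rose and genes that were not called be compared at the same element. Capitals mark CACGTG.
Glb1: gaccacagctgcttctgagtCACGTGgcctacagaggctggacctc
Naglu: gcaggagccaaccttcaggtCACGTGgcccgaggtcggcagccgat
Gaa: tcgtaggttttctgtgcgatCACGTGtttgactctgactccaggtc
Lgmn: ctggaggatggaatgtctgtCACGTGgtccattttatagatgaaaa
Gla: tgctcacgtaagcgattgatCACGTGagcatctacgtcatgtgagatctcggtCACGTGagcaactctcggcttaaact
Ctsa: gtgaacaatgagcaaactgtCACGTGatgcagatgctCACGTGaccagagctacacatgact
Sumf1: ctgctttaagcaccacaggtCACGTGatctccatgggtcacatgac
Sgsh: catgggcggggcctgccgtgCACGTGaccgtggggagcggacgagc
Arsa: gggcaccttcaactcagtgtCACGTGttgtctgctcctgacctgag

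These stretches lie on the plus strand at chr9:114401010-114401055 (Glb1), chr11:101070001-101070046 (Naglu), chr11:119267803-119267848 (Gaa) and chr2:164833741-164833802 (Ctsa). They lie on the minus strand at chr12:102439116-102439161 (Lgmn), chrX:134601174-134601252 (Gla), chr6:108185569-108185614 (Sumf1), chr11:119355514-119355559 (Sgsh) and chr15:89477415-89477460 (Arsa). The first 6 belong to genes that were higher in UPBIG than in DOWN, and the last 3 to genes not called in that comparison. By call, the motif was present in 6 of the 16 higher genes with a promoter, 3 of the 11 uncalled genes and 1 of the 3 lower genes. Ctsa and Lgmn each have a second promoter in the table, without the motif. The lower gene was Plbd1, whose motif lies 46 bases after the start. The motif was therefore found in all 3 kinds of gene, and no test was made of these counts.

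Library totals ran from 17109669 to 23282621 expected counts. Levels are CPM (a gene's counts scaled to a common library size) on library totals scaled by TMM, a method that centres the bulk of genes between libraries, and differences are log2 fold changes from edgeR with their standard error (SE). A gene is called at a Benjamini-Hochberg adjusted p under 0.05 over all 12625 genes. The labelled cell type was checked on 10 alveolar macrophage markers, all present in each group, with a summed level of 9531 to 12772 CPM in UPBIG, 9812 to 14863 in UPSMALL and 7528 to 11554 in DOWN. Most of that sum was Chil3, whose groups overlapped. Between UPBIG and DOWN 6 of the 10 rose and 1 fell, against 9.03% and 8.48% of all genes tested. The median log2 fold change of the 10 was 0.76. Fabp4, a fatty acid binding protein gene, had means of 897 and 151 CPM there, and Car4, a carbonic anhydrase gene, 17.9 and 88.1. These alveolar macrophage markers thus moved with the groups as well. Of 4 broader macrophage or leukocyte markers, none rose and 1 fell between UPBIG and DOWN, with a median of 0.06. None of the 4 was called in the other comparisons, where 5.7% (UPBIG against UPSMALL) and 1.14% (UPSMALL against DOWN) of all genes were. The summed markers of monocytes, of dendritic cells and of T and NK cells were highest in DOWN. Klrb1c of the T and NK cell list was an exception, at means of 0.386 CPM in UPBIG and 0.381 in DOWN. The summed level of 4 monocyte genes was 228 to 276 CPM in DOWN, 66.0 to 119 in UPSMALL and 15.1 to 27.4 in UPBIG. For 7 dendritic cell genes it was 33.4 to 69.5, 5.31 to 14.7 and 2.68 to 7.64 CPM, and for 5 T and NK cell genes 18.2 to 68.4, 0.808 to 4.30 and 1.495 to 6.50 CPM. The summed level of the neutrophil list was highest in UPBIG, at 360.1 to 403 CPM, against 170 to 227 in UPSMALL and 141 to 182 in DOWN. S100a9 and Mmp8 of that list were instead highest in DOWN, at means of 7.26 and 23.8 CPM, against 2.55 and 9.94 in UPBIG. Retnlg was near the floor, at 0.112 in UPBIG and 0.0735 in DOWN. Nearly all of the summed level was S100a8. Ly6g matched no single counted gene, so no level of it is known here. The summed level of 5 epithelial genes was 14.5 to 224 CPM in UPBIG, 9.72 to 28.6 in UPSMALL and 6.79 to 13.9 in DOWN. Most of the UPBIG range came from Scgb1a1, at 13.0 to 212 CPM there (mean 65.2, SD 98.1). Epcam of the same list had a lower mean in UPBIG, 1.97 CPM, than in DOWN, 3.80. No counted gene of these 5 lists had a total of 0 in a group. The part of these markers in the results that follow was not tested. UPSMALL replicate 4 stood farthest from its group: the mean chi-square per gene between it and the other UPSMALL libraries was 91.3 to 135, against 36.1 to 40.7 among those 3.

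Between UPBIG and DOWN, enzymes for all 5 kinds of substrate were higher in UPBIG, while 3 genes were lower. Of the 35 genes, 18 rose, 3 fell and 14 were not called. Over all genes tested, 17.5% were called, 9.03% higher and 8.48% lower. The 18 were Gla, Glb1, Psap, Gm2a, Gusb, Naglu, Galns, Fuca1, Neu1, Ctsa, Lipa, Pla2g15, Plbd2, Tpp1, Lgmn, Gaa, Acp2 and Dnase2a, and the 3 were Arsb, Ids and Plbd1. The median log2 fold change of the 35 was 0.36, beside -0.03 for all genes tested. The libraries of UPBIG lay wholly above those of DOWN for 17 genes and wholly below for 3, against 11.0% and 10.3% of all genes. The rise of Glb1 was the largest of the 18, at 2.14-fold, and the fall of Plbd1 was 9.66-fold.

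The size of this shift depended on the scaling. Under scaling by library totals alone, all genes had a median of -0.36 in place of -0.03 and the 35 a median of 0.04 in place of 0.36, with 9 genes called higher and 5 lower. The 9 that stayed called as higher were Gla, Glb1, Naglu, Galns, Fuca1, Ctsa, Lipa, Tpp1 and Gaa. The other 9 remained positive, from 0.03 for Gm2a to 0.41 for Psap (adjusted p = 0.109 for Psap and 0.884 for Gm2a in edgeR). Asah1 and Ppt1 joined the lower genes. A rise is thus a rise relative to the other genes.

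**Figure D1:**
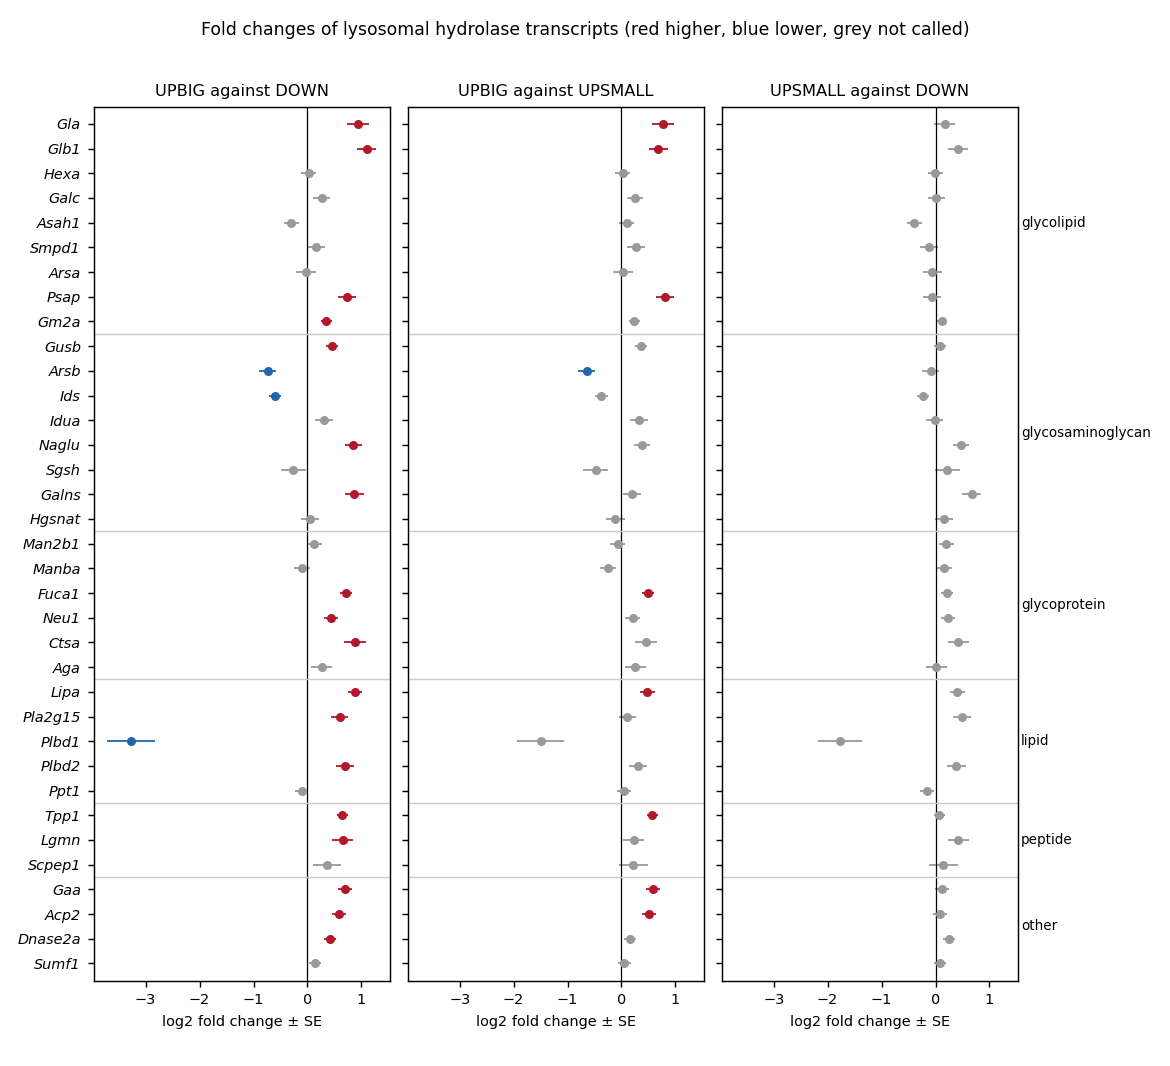
Log2 fold change (x axis, with SE) of each of the 35 genes (rows, grouped by substrate) in the 3 comparisons, with all 12 libraries in 1 fit. Red marks genes called higher in the first group, blue genes called lower and grey genes not called: 18 red and 3 blue between UPBIG and DOWN, 8 and 1 between UPBIG and UPSMALL, and 0 between UPSMALL and DOWN.

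Summed over the 35 genes, the level was 7971 ± 628 CPM (SD, n = 4) for UPBIG, 6205 ± 577 for UPSMALL and 5642 ± 426 for DOWN. The lowest UPBIG library, at 7466, lay above the highest UPSMALL library, at 6786, and above the highest DOWN library, at 6023. As a plain share of each library's counts the same sum was 0.694% ± 0.0577 (SD, n = 4), 0.653% ± 0.0452 and 0.614% ± 0.0512, and on that scale the ranges of the groups overlapped.

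**Figure D2:**
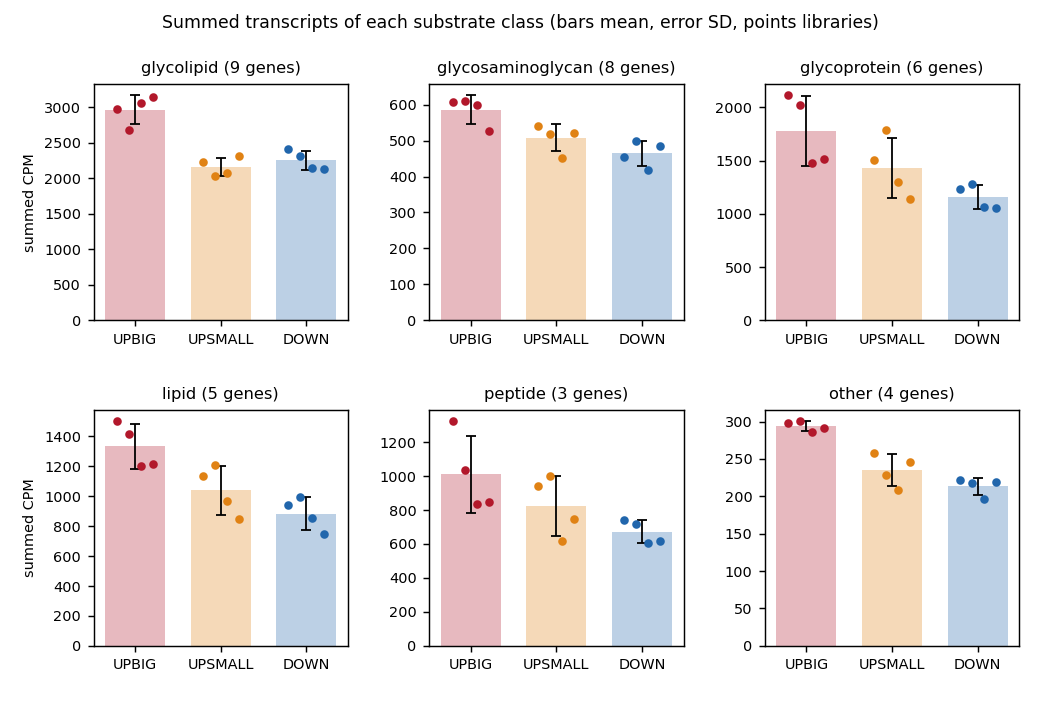
Summed CPM (y axis, TMM-scaled) of the genes of each substrate class in UPBIG, UPSMALL and DOWN. Bars give the mean, error bars the SD and points the 4 libraries. The mean glycolipid sum was 2964 CPM in UPBIG against 2160 in UPSMALL and 2250.0 in DOWN, of which Psap alone gave 1561, 891 and 935. In the other classes the mean stepped down from UPBIG through UPSMALL to DOWN. The libraries of UPSMALL overlapped those of both other groups there, except that UPBIG stood clear in the class of left-over genes. As a plain share of counts, the glycosaminoglycan means were 0.0511%, 0.0537% and 0.0507%. No test was made of these sums.

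Among the glycolipid genes, 4 of 9 rose between UPBIG and DOWN and none fell, with a median log2 fold change of 0.27. Psap encodes prosaposin, which is cut into the saposins that present sphingolipids to their hydrolases. It lies on chromosome 10 from 60277627 to 60302597 in mm10. Its levels were 1427, 1218, 1729 and 1868 CPM in UPBIG replicates 1 to 4, 833, 643, 865 and 1226 in UPSMALL and 1013, 938, 874 and 916 in DOWN. All UPBIG libraries were above all DOWN libraries, while UPSMALL replicate 4 was just above the lowest UPBIG library. The log2 fold change was 0.74 ± 0.16 (SE, adjusted p = 0.00372 in edgeR).

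Glb1 encodes beta-galactosidase, which removes galactose from ganglioside and keratan sulfate, and lies on chromosome 9 from 114401076 to 114474898. It stood at 56.4, 57.3, 52.0 and 32.3 CPM in UPBIG, 28.5, 33.4, 27.5 and 33.9 in UPSMALL and 28.3, 25.9, 20.9 and 17.4 in DOWN. UPBIG replicate 4 was low for its group and fell inside the UPSMALL range but above every DOWN library. The rise over DOWN was 1.10 ± 0.18 on the log2 scale (adjusted p = 0.000313 in edgeR). Gla, alpha-galactosidase, which cuts globotriaosylceramide, stood at 93.5, 104, 81.3 and 74.7 CPM in UPBIG, 58.6, 70.4, 47.3 and 30.6 in UPSMALL and 51.6, 50.3, 46.2 and 35.9 in DOWN. UPBIG lay above both other groups without overlap, and the log2 fold change against DOWN was 0.94 ± 0.20 (adjusted p = 0.00306). Gm2a, the activator that lifts GM2 ganglioside out of the membrane for hexosaminidase A, was higher by 0.35 ± 0.10 (adjusted p = 0.0199). That call ended without DOWN replicate 3 or UPBIG replicate 1 (adjusted p = 0.0604 and 0.0531).

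Hexa, the alpha subunit of hexosaminidase A that works with Gm2a, was not called. It ranged from 569 to 805 CPM in UPBIG, 510.2 to 769 in UPSMALL and 571 to 699 in DOWN, so the 3 groups overlapped almost fully, and its log2 fold change against DOWN was 0.02 ± 0.14 (adjusted p = 0.947 in edgeR). The count for Hexa may include reads of Tmem202 on the other strand, since the sources used here do not give the strand setting. Tmem202 shares 255 of the exonic bases of Hexa and was itself higher by 0.97 ± 0.21. It had 3040 counts over all libraries, while Hexa had 42812 in UPBIG, 56410 in UPSMALL and 55567 in DOWN. The ceramidase gene Asah1 was at 229.9 to 262 CPM in UPBIG and 235 to 367 in DOWN, a difference of -0.30 ± 0.14 (adjusted p = 0.147), and it was called lower without DOWN replicate 4 (-0.39, adjusted p = 0.0443). Galc, which removes galactose from galactosylceramide, the sphingomyelinase gene Smpd1 and the sulfatide sulfatase gene Arsa were not called either, at 0.27, 0.15 and -0.03.

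The glycosaminoglycan genes moved in both directions: 3 of 8 rose and 2 fell between UPBIG and DOWN, with a median log2 fold change of 0.17. Naglu, Gusb and Galns rose. Naglu removes N-acetylglucosamine from heparan sulfate and stood at 67.7, 66.2, 59.1 and 60.2 CPM in UPBIG, 56.5, 49.9, 40.8 and 48.3 in UPSMALL and 30.2, 38.5, 27.0 and 44.5 in DOWN. The UPBIG libraries were above every other library, while UPSMALL and DOWN overlapped, and the log2 fold change against DOWN was 0.85 ± 0.15 (adjusted p = 0.00053 in edgeR). Galns removes sulfate from keratan sulfate and from chondroitin 6-sulfate. Its 4 UPBIG libraries held 91.7, 78.6, 60.1 and 56.3 CPM, the UPSMALL libraries 70.4, 63.1, 53.2 and 63.2, and the DOWN libraries 36.2, 49.6, 28.4 and 43.1. Here UPSMALL lay with UPBIG and above DOWN, and the rise between UPBIG and DOWN was 0.87 ± 0.17 (adjusted p = 0.00166). Gusb, beta-glucuronidase, rose by 0.46 ± 0.11 (adjusted p = 0.00628), from 224 to 267 CPM in DOWN to 294 to 373 in UPBIG.

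Arsb and Ids, both sulfatases, fell. Arsb removes sulfate from dermatan sulfate and chondroitin 4-sulfate and lies on chromosome 13 from 93771630 to 93943016. It stood at 12.8, 16.9, 14.0 and 15.7 CPM in UPBIG, 20.6, 21.2, 22.6 and 28.3 in UPSMALL and 26.6, 22.0, 22.6 and 27.7 in DOWN. UPBIG lay below both other groups, which overlapped each other, and the log2 fold change against DOWN was -0.74 ± 0.16 (adjusted p = 0.00274 in edgeR). Ids starts the breakdown of heparan and dermatan sulfate by removing sulfate from iduronate and lies on chromosome X from 70343069 to 70365084. Its levels were 47.3, 46.7, 43.5 and 49.2 CPM in UPBIG, 59.0, 58.3, 56.9 and 67.4 in UPSMALL and 61.1, 69.5, 71.9 and 80.6 in DOWN, again with UPBIG below both other groups, and the difference from DOWN was -0.60 ± 0.11 (adjusted p = 0.00107). Idua, which follows Ids in the same chain, was at 0.30 ± 0.16 (adjusted p = 0.232). The heparan sulfate genes Sgsh and Hgsnat were not called, at -0.26 ± 0.23 and 0.05 ± 0.17.

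The 5 sulfatases among the genes therefore did not share a direction between UPBIG and DOWN: Galns rose, Arsb and Ids fell, and Arsa and Sgsh were not called. Sumf1, which makes the formylglycine that every sulfatase needs at its active site, stood at 59.4, 58.2, 64.7 and 64.0 CPM in UPBIG, 63.7, 54.9, 53.0 and 65.5 in UPSMALL and 61.3, 48.1, 61.3 and 52.8 in DOWN. The groups overlapped and the log2 fold change was 0.14 ± 0.12 (adjusted p = 0.477 in edgeR). Sgsh had the fewest counts per length of all 35 genes, at 5.10 to 10.1 CPM over the 12 libraries, so small changes of that gene would be harder to see.

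**Figure D3:**
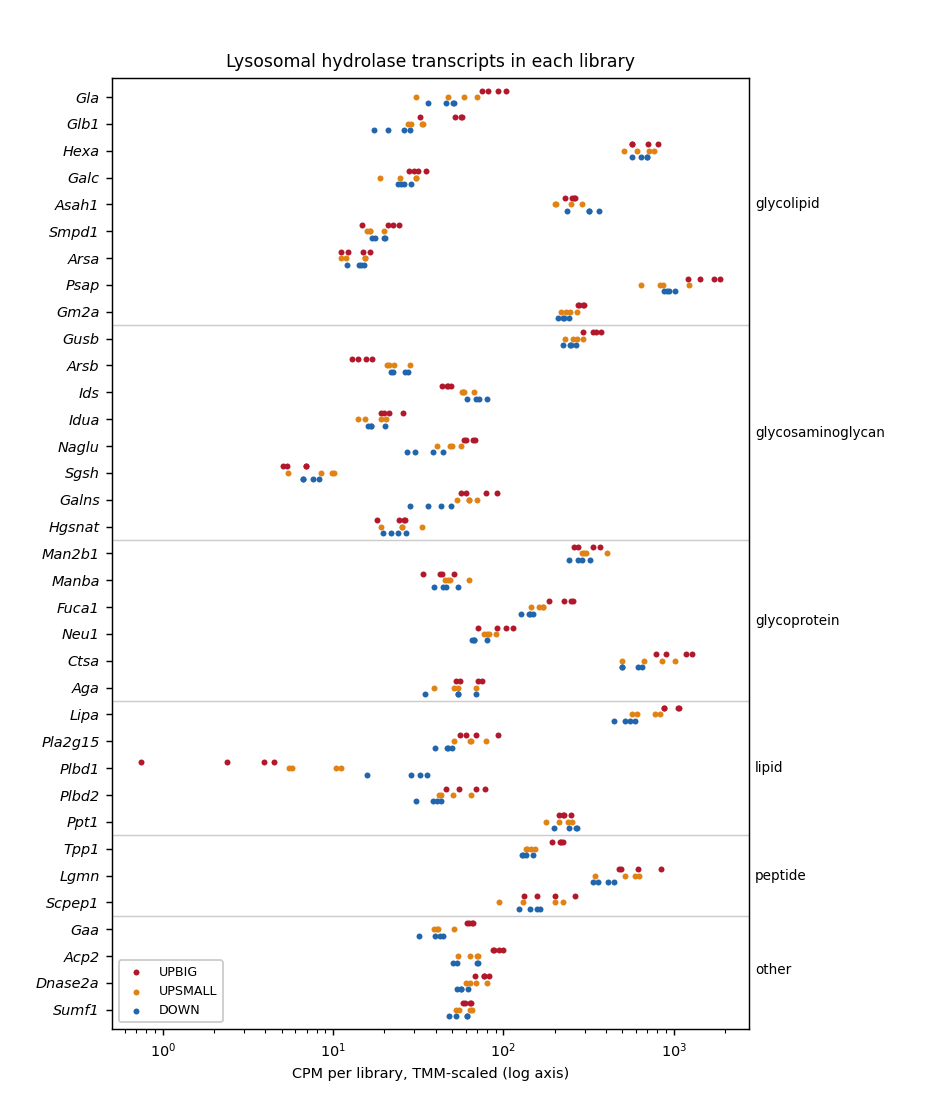
CPM in each library (x axis, log scale, TMM-scaled) for the 35 genes, grouped by substrate, with 1 point per library. UPBIG points sit to the right of DOWN points for 17 genes, and to the left for Arsb, Ids and Plbd1, where Plbd1 runs from 0.748 CPM in UPBIG replicate 1 to 35.7 in DOWN replicate 2.

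Of the 6 glycoprotein genes, 3 rose between UPBIG and DOWN and none fell, with a median of 0.35. Fuca1 encodes the fucosidase that trims glycoproteins. It stood at 258, 248, 226 and 185 CPM in UPBIG, 171, 172, 146 and 163 in UPSMALL and 149, 143, 142 and 128 in DOWN, so UPBIG lay above the others without overlap. The log2 fold change was 0.71 ± 0.11 (adjusted p = 0.000217 in edgeR). Ctsa encodes protective protein, or cathepsin A, a carboxypeptidase that holds the sialidase Neu1 and the galactosidase Glb1 in 1 complex. Its mean was 1043, 760 and 566 CPM, of class sums of 1782, 1434 and 1159, in UPBIG, UPSMALL and DOWN. Its levels were 1286, 1188, 793 and 903 CPM in UPBIG, 850.4, 1018, 672 and 499.9 in UPSMALL and 616, 651, 499 and 499 in DOWN. UPBIG lay above DOWN and overlapped UPSMALL, and the rise over DOWN was 0.88 ± 0.20 (adjusted p = 0.00503). Ctsa shares 495 exonic bases with Pltp on the other strand, a lipid transfer protein gene that was itself higher by 2.76 ± 0.20. Pltp had 21251 counts over all libraries, while Ctsa had 67293 in UPBIG, 65110 in UPSMALL and 48177 in DOWN. The part of Pltp reads in the Ctsa count was not tested.

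Neu1 stood at 114, 91.5, 104 and 70.6 CPM in UPBIG and 80.6, 65.1, 67.6 and 67.7 in DOWN. UPBIG replicate 4 lay inside the DOWN range, and the rise of 0.43 ± 0.13 (adjusted p = 0.0292 in edgeR) was no longer called without UPBIG replicate 1 or 3 or without DOWN replicate 2, 3 or 4 (adjusted p = 0.0555 to 0.108). All 3 partners of the complex, Ctsa, Neu1 and Glb1, were thus called higher with all libraries. The mannosidase genes Man2b1 and Manba and the glycosylasparaginase gene Aga were not called, at 0.13 ± 0.14, -0.11 ± 0.15 and 0.27 ± 0.19.

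Among the lipid genes, 3 of 5 rose and 1 fell, with a median of 0.60. Lipa encodes lysosomal acid lipase, which frees cholesterol and fatty acids from lipoprotein esters and triglyceride, and lies on chromosome 19 from 34492318 to 34527474. It stood at 1081, 1053, 875 and 879 CPM in UPBIG, 773, 833, 613 and 571 in UPSMALL and 554, 590.4, 516 and 448 in DOWN. UPBIG lay above both other groups, UPSMALL replicate 4 lay within the DOWN range, and the log2 fold change between UPBIG and DOWN was 0.88 ± 0.13 (adjusted p = 0.000126 in edgeR). Pla2g15, the lysosomal phospholipase that alveolar macrophages use on surfactant phospholipid, stood at 93.6, 68.7, 55.6 and 59.9 CPM in UPBIG, 78.9, 64.3, 63.8 and 51.0 in UPSMALL and 46.5, 50.02, 39.5 and 47.3 in DOWN. Both UPBIG and UPSMALL lay above DOWN. The rise between UPBIG and DOWN was 0.60 ± 0.16 (adjusted p = 0.0127), and 0.42 without UPBIG replicate 1 (adjusted p = 0.0592). The palmitoyl thioesterase gene Ppt1 was not called, at -0.11 ± 0.13.

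Plbd1 and Plbd2, 2 genes of the phospholipase B domain family, went in opposite directions. Plbd1, on chromosome 6 from 136612070 to 136661928, stood at 0.748, 4.48, 3.93 and 2.39 CPM in UPBIG, 5.52, 11.1, 10.4 and 5.77 in UPSMALL and 32.2, 35.7, 28.5 and 15.7 in DOWN. The 3 groups did not overlap, with UPBIG lowest and DOWN highest. The log2 fold change between UPBIG and DOWN was -3.27 ± 0.44 (adjusted p = 0.000191 in edgeR). Plbd2 was at 78.4, 68.6, 55.2 and 45.8 CPM in UPBIG and 40.8, 43.3, 30.7 and 38.7 in DOWN, a rise of 0.69 ± 0.17 (adjusted p = 0.00839). The monocyte, dendritic cell and T cell markers given above fell in the same order of groups as Plbd1 or nearly so, and their part in this fall was not tested. In these bulk libraries fewer cells of a type and less RNA per cell cannot be told apart.

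Of the 3 peptide genes, 2 rose and none fell, with a median of 0.64. Tpp1, tripeptidyl peptidase, which cuts tripeptides from protein ends, stood at 214, 217, 225 and 194 CPM in UPBIG, 146, 153, 137 and 136 in UPSMALL and 129, 149, 131 and 136 in DOWN. UPBIG stood clear of both other groups, and the rise over DOWN was 0.64 ± 0.10 (adjusted p = 0.000132 in edgeR). Lgmn, legumain, which cuts after asparagine and matures other proteases, stood at 846, 616, 479 and 494 CPM in UPBIG, 594, 623, 346 and 519 in UPSMALL and 448, 409.6, 334 and 358 in DOWN. UPBIG lay above DOWN, with replicate 1 far above the rest of its group. The rise of 0.65 ± 0.19 (adjusted p = 0.0264) ended without UPBIG replicate 1 or 2 or DOWN replicate 3 or 4 (adjusted p = 0.0587 to 0.0883), and was 0.45 without UPBIG replicate 1. The carboxypeptidase gene Scpep1 ran from 133 to 263 CPM in UPBIG and 124 to 163 in DOWN, a difference of 0.36 ± 0.26 (adjusted p = 0.411).

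In the remaining class, Gaa, Acp2 and Dnase2a rose. Gaa, the glycogen-degrading alpha-glucosidase, stood at 63.2, 65.9, 66.6 and 61.5 CPM in UPBIG, 51.1, 39.0, 40.6 and 41.1 in UPSMALL and 44.2, 42.4, 31.8 and 39.8 in DOWN, with UPBIG above both other groups. Its log2 fold change against DOWN was 0.70 ± 0.13 (adjusted p = 0.000742 in edgeR). The acid phosphatase gene Acp2 was at 86.5 to 99.3 CPM in UPBIG and 50.3 to 71.0 in DOWN, a rise of 0.59 ± 0.13 (adjusted p = 0.0036). Dnase2a, the acid nuclease that digests DNA of engulfed cells, rose by 0.42 ± 0.12 (adjusted p = 0.0163), or 0.38 without UPBIG replicate 2, where the call ended (adjusted p = 0.0532).

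Between UPBIG and UPSMALL, 8 of the 35 genes were higher in UPBIG and 1, Arsb, was lower. Over all genes tested, 5.7% were called, 3.22% higher and 2.49% lower, and the median log2 fold change was 0.23 for the 35 against -0.03 for all genes. The 8 came from each class except the glycosaminoglycan genes: Gla, Glb1 and Psap, Fuca1, Lipa, Tpp1, and Gaa and Acp2. Psap rose by 0.81 ± 0.16 (adjusted p = 0.00474 in edgeR), Tpp1 by 0.57 ± 0.10 (adjusted p = 0.00106) and Gaa by 0.58 ± 0.13 (adjusted p = 0.00827). Fuca1 rose by 0.49 ± 0.11 and Arsb fell by 0.64 ± 0.16. With library totals alone none of the 8 was called, and 5 genes were called lower: Arsb, Ids, Plbd1, Manba and Sgsh.

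Several of these calls lay near the threshold, and leaving out 1 of several libraries ended them with little change in the size of the difference. Acp2 (0.51 ± 0.13), Gla (0.77 ± 0.20), Glb1 (0.68 ± 0.18) and Lipa (0.48 ± 0.13) each lost the call without UPBIG replicate 1, without UPBIG replicate 2 and without UPSMALL replicate 3. Without those libraries Gla stood at 0.69 to 0.75, Acp2 at 0.43 to 0.50, Glb1 at 0.61 to 0.63 and Lipa at 0.42 to 0.44. Their adjusted p ranged there from 0.0664 for Acp2 to 0.132 for Lipa in edgeR. Acp2 and Glb1 also lost it without UPSMALL replicate 1 (adjusted p = 0.0672 and 0.0811), Glb1 without UPBIG replicate 3 (0.0679), Lipa without DOWN replicate 1 or 3, which are outside this comparison (0.0502 and 0.0501, both at a log2 fold change of 0.48), and Fuca1 without UPSMALL replicate 3 (0.05). Without UPSMALL replicate 4, the library farthest from its group, Lipa and Arsb were not called (adjusted p = 0.0906 and 0.0722), and Arsb was not called without UPBIG replicate 1 either (0.0513). The counts were then 7 higher and 0 lower without UPSMALL replicate 4, 4 higher and 0 lower without UPBIG replicate 1, 4 and 1 without UPBIG replicate 2, and 3 and 1 without UPSMALL replicate 3. A count of 2 lower was reached without DOWN replicate 4, where Plbd1 was called (adjusted p = 0.0432). Psap, Tpp1 and Gaa were called in every fit that left out a library.

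Gusb, Ids and Plbd1 did not pass between UPBIG and UPSMALL, although in each the 2 groups did not overlap. They stood at 0.37 ± 0.11 (adjusted p = 0.0534 in edgeR), -0.37 ± 0.11 (0.0637) and -1.497 ± 0.43 (0.0622). DESeq2 called all 3 (adjusted p = 0.0129, 0.0434 and 0.00178). Gusb was also called without UPBIG replicate 4 or UPSMALL replicate 1 (adjusted p = 0.0381 and 0.0474). In all, 9 of the 35 genes lay wholly above UPSMALL in UPBIG and 3 wholly below, against 6.47% and 5.35% of all genes tested.

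Between UPSMALL and DOWN edgeR called none of the 35 genes. Over all genes tested it called 1.14%, of which 0.594% higher and 0.547% lower. At an unadjusted p under 0.05, 9 of the 35 were higher and 2 lower, in a comparison where 12.9% of all genes reached that level in either direction. DESeq2 called Galns higher and Plbd1 lower, and limma-voom called Plbd1. Plbd1 was the nearest to the threshold in edgeR, at -1.78 ± 0.41 (adjusted p = 0.0574), and it passed when UPBIG replicate 1 or DOWN replicate 4 was left out (adjusted p = 0.00564 and 0.033). Galns was at 0.67 ± 0.17 (adjusted p = 0.0697) and was called without DOWN replicate 2 or UPBIG replicate 1 (adjusted p = 0.047 and 0.0452). Naglu was at 0.48 ± 0.15 (adjusted p = 0.138) and was called without DOWN replicate 4 (0.63, adjusted p = 0.0458). UPSMALL lay wholly above DOWN for Galns and Pla2g15 and wholly below it for Plbd1, that is 2 and 1 of 35 genes, against 3.87% and 4.38% of all genes tested.

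The 3 comparisons share libraries, so their values are set side by side and not correlated. Tpp1 stood at 0.64 for UPBIG against DOWN, 0.57 for UPBIG against UPSMALL and 0.07 for UPSMALL against DOWN, so UPSMALL sat with DOWN. Psap, at 0.74, 0.81 and -0.07, and Gaa, at 0.70, 0.58 and 0.12, had the same order of sizes. Galns, at 0.87, 0.20 and 0.67, and Pla2g15, at 0.60, 0.11 and 0.49, had UPSMALL nearer to UPBIG. Naglu, at 0.85, 0.37 and 0.48, Lipa, at 0.88, 0.48 and 0.40, and Plbd1, at -3.27, -1.497 and -1.78, had UPSMALL near the middle. A joint edgeR test of any difference among the 3 groups called 18 of the 35 genes, against 13.8% of all genes tested. These were the 21 called between UPBIG and DOWN less Gm2a, Neu1 and Lgmn.

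Levels between genes were compared as CPM per kilobase of the principal transcript, taken from GENCODE M21. Psap was the highest of the 35 over the 12 libraries, at 587 ± 110.3 (SD, n = 4) for UPBIG, 336 ± 91.7 for UPSMALL and 352 ± 22.0 for DOWN. Hexa followed at 332 ± 57.6, 326 ± 57.1 and 327 ± 30.0, ahead of Lgmn, Lipa and Ctsa. Hexa, Lgmn, Lipa and Ctsa did not differ beyond their spread in UPBIG, where Lgmn stood at 306 ± 85.4, Lipa at 327 ± 37.2 and Ctsa at 286 ± 63.9. In DOWN, Hexa stood above Lgmn at 195 ± 25.6, Lipa at 178 ± 20.5 and Ctsa at 155 ± 21.7. Sgsh was the lowest on the mean of all libraries, at 1.40 ± 0.226, 1.94 ± 0.489 and 1.67 ± 0.174, next to Arsa at 3.95 ± 0.708, 3.86 ± 0.643 and 4.02 ± 0.4. In UPBIG, Plbd1 was as low as Sgsh, at 1.44 ± 0.835, against 14.0 ± 4.33 in DOWN.

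**Figure D4:**
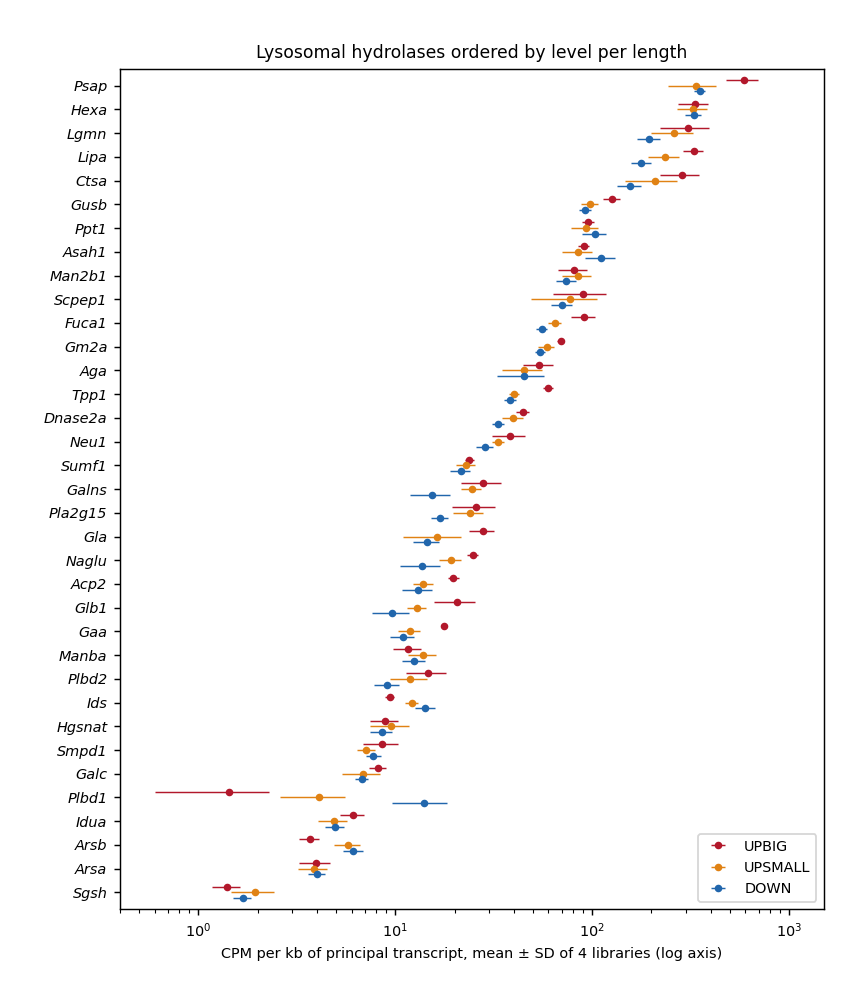
Mean level per length of each gene (x axis, CPM per kilobase of principal transcript, log scale) in UPBIG, UPSMALL and DOWN, with the SD of 4 libraries, ordered by the mean of all libraries. Levels span from 1.40 for Sgsh in UPBIG to 587 for Psap in UPBIG, and Plbd1 shows the widest gap between groups.

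Of 25 other lysosomal hydrolases and cofactors, 10 rose between UPBIG and DOWN and 1 fell, with a median of 0.15. Over all genes tested, 9.03% rose and 8.48% fell there, with a median of -0.03. Scaled by library totals alone, 5 of the 25 rose and 2 fell, and their median was -0.17, beside -0.36 for all genes. Pcyox1, the prenylcysteine oxidase, had the largest rise on the list, at 2.39 ± 0.12 against DOWN (adjusted p = 1.74e-10 in edgeR) and 1.74 ± 0.12 against UPSMALL. It was also the only gene of this list called between UPSMALL and DOWN (0.65 ± 0.12, adjusted p = 0.0099). Of all genes tested, 1.14% were called between those groups. Creg1, a glycoprotein of the lysosome lumen, rose by 1.03 ± 0.15. The gene that fell was Naaa, an acid amidase, at -0.38 ± 0.12 (adjusted p = 0.0315), a call that ended without DOWN replicate 2, 3 or 4 or UPBIG replicate 2 or 4 (adjusted p = 0.0764 to 0.0992). Between UPBIG and UPSMALL, 7 of the 25 rose and none fell, against 3.22% and 2.49% of all genes tested. Scaling by library totals alone left 3 higher and gave 2 lower.

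Of 9 genes that tag or deliver lysosomal enzymes, 4 rose between UPBIG and DOWN and none fell. Over all genes tested, 9.03% rose and 8.48% fell. The median of the 9 was 0.45, and 0.13 with library totals alone. Igf2r and M6pr encode receptors that bind mannose 6-phosphate, Sort1 encodes a receptor that carries prosaposin, and Scarb2 encodes a lysosomal membrane protein. Igf2r rose by 1.53 ± 0.20 (adjusted p = 2.64e-05 in edgeR), from a mean of 9.30 CPM in DOWN to 26.9 in UPBIG. Scarb2 rose by 0.90 ± 0.10 (adjusted p = 6.18e-06), Sort1 by 0.60 ± 0.10 and M6pr by 0.45 ± 0.12, and the calls of Sort1 and M6pr ended under scaling by library totals (adjusted p = 0.0832 and 0.44). The enzymes that build the tag, Gnptab, Gnptg and Nagpa, were not called, at 0.06 ± 0.13, 0.08 ± 0.15 and -0.27 ± 0.16. Between UPBIG and UPSMALL, Igf2r (0.88 ± 0.20) and Scarb2 (0.87 ± 0.10) rose, Igf2r losing its call under that scaling (adjusted p = 0.0598), and edgeR called none of the 9 between UPSMALL and DOWN. Of all genes tested, 3.22% rose between UPBIG and UPSMALL, and 1.14% were called between UPSMALL and DOWN.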

How the data were processed

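RNA of 12 libraries was measured. Per the labels' protocols, cells were lysed without RNA extraction and full-length cDNA was made and amplified from polyadenylated RNA. The deposited values are expected counts per gene, and the submitters' processing notes name STAR, RSEM and mm10. The sources used here give no version, annotation release or strand setting. Of the deposited expected counts, 13.8% were not whole, and all were rounded. The authors' table gives Ensembl identifiers, and 26775 of 26855 were named from GENCODE M21, of the same assembly. Groups came from sample titles. Genes passing filterByExpr were fitted over all 12 libraries with edgeR 4.0.16 in R 4.3.3 (TMM, robust quasi-likelihood tests, no block), and SE is the log2 fold change over the square root of F. The precision rests on the spread between libraries as well as on library totals, which ran from 17109669 to 23282621. Reads were amplified and carry no molecular identifiers, so they are not independent molecules.

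The alternatives were other scalings (RLE, library totals), DESeq2 1.42.0, limma-voom 3.58.1, other low-count filters, a replicate block, only the 8 libraries compared, and each library left out. The method was tested on simulated data. The members, classes, lists and rule for named genes (called members and opposite movers of each class, called genes of the fixed lists) were chosen with earlier results of these data known. Genes of the lists that were not called, and Pltp and Tmem202, were named after their values were seen. Some genes of the lists are counted but not reported here by name. On mm10, 12 of the 35 genes share exonic bases with a gene on the other strand. Replicate libraries differed by more than counting noise.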

Additional observations from a re-analysis of the deposited data

Results flagged for a closer look

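In 3 of 105 groups of 4 libraries, the highest library stood apart from the other libraries of its group by Dixon's criterion, and chance gives about 5%. Smpd1 stood at 19.8 CPM in UPSMALL replicate 2, against 15.9 to 16.5 in the other UPSMALL libraries. Man2b1 stood at 405 CPM in UPSMALL replicate 2, against 289 to 305. Neu1 stood at 80.6 CPM in DOWN replicate 1, against 65.1 to 67.7 in the other DOWN libraries, and was called between UPBIG and DOWN also without that library.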

How the results depend on the processing

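Of 30 called results of single genes, 12 kept their call and direction under all 20 alternatives, and no called gene changed sign. All 12 were between UPBIG and DOWN, while each call between UPBIG and UPSMALL ended in at least 1 alternative. With library totals alone, UPBIG against DOWN gave 9 genes higher and 5 lower, UPBIG against UPSMALL 0 higher and 5 lower, UPSMALL against DOWN 1 lower, and the test of any difference 10. There the median of the 35 genes between UPBIG and UPSMALL turned from 0.23 to -0.0419, beside a median of all genes that moved from -0.03 to -0.31; the alternative differs only in the scaling factors.

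Between UPBIG and UPSMALL, the lower genes numbered 3 with DESeq2, 2 with no low-count filter and 2 with at least 5 CPM in 4 libraries. Between UPSMALL and DOWN, DESeq2 gave 1 higher and 1 lower, no low-count filter 6 higher and 1 lower, and limma-voom and the fit of only 8 libraries 1 lower each. The cause of these moves was not tested.

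The replicate block gave 3 lower genes between UPBIG and UPSMALL, 2 higher and 1 lower between UPSMALL and DOWN, and 22 of any difference. It added Ctsa (adjusted p = 0.0104, against 0.223 without it), Gusb, Ids and Plbd1 between UPBIG and UPSMALL, and Lipa (0.0176, against 0.171), Galns and Plbd1 between UPSMALL and DOWN. Same-numbered libraries correlated at -0.03 to 0.15, not all above 0.1, and no source names a pairing, so the numbers were not taken as pairs. Between UPBIG and DOWN each UPBIG library correlated best with its own number. The same held for numbers 1 and 2 between UPBIG and UPSMALL, and for numbers 1, 2 and 4 between UPSMALL and DOWN. If the numbers do pair libraries, the p-values without the block ignore that pairing.

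Leaving out 1 library gave 14 to 18 higher and 3 to 4 lower genes between UPBIG and DOWN, 3 to 9 and 0 to 2 between UPBIG and UPSMALL, 0 to 1 each way between UPSMALL and DOWN, and 14 to 19 of any difference. Depth limits Plbd1 and Sgsh most: the smallest count of any of the 35 genes in a library was 12, for Plbd1.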

Other observations

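For Gla, Hexa, Fuca1, Ctsa, Lipa, Plbd2, Lgmn and Scpep1, replicates 1 and 2 lay above replicates 3 and 4 in all 3 groups. Ctsa was at 1286 and 1188 CPM against 793 and 903 in UPBIG, 850.4 and 1018 against 672 and 499.9 in UPSMALL, and 616 and 651 against 499 and 499 in DOWN. Lipa was at 1081 and 1053 against 875 and 879, 773 and 833 against 613 and 571, and 554 and 590.4 against 516 and 448. Scpep1 was at 263 and 201 against 133 and 159, 200.4 and 224 against 131 and 93.9, and 163 and 158 against 143 and 124. Psap lay the other way in UPBIG, at 1427 and 1218 against 1729 and 1868, and in UPSMALL, at 833 and 643 against 865 and 1226. In DOWN Psap did not, at 1013 and 938 against 874 and 916. The summed level of the genes other than Psap was 5666 to 7398 CPM in UPBIG, 4586 to 6143 in UPSMALL and 4345 to 5085 in DOWN, so without Psap the UPBIG and UPSMALL ranges overlapped. Set by replicate number, UPBIG was above UPSMALL and UPSMALL above DOWN in all 4 numbers, from 7398, 5773 and 4986 CPM for number 1 to 5666, 4586 and 4345 for number 4, although the labels do not say that a number pairs libraries. These patterns were noticed after the values were seen and were not tested.

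S100a8, listed here as a neutrophil marker, was higher in UPBIG than in DOWN by 1.55 ± 0.12 (SE, adjusted p = 5.35e-08 in edgeR), while Mmp8 of the same list fell by 1.26 ± 0.20 on the log2 scale. The neutrophil list did not move in 1 direction.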
